A study of Homo sapiens with 6 samples.

Results

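The histone genes were described in K562 cells, a human erythroleukemia cell line, that expressed an shRNA against lncRNA-IIRX or a control shRNA against luciferase. Members were the rows whose RefSeq protein accession maps to a clustered histone gene (symbols beginning H2AC, H2BC, H3C or H4C, and the H1 genes) or to 1 of 8 variant genes (H2AX, H2AZ1, H2AZ2, H2AJ, H3-3A, H3-3B, MACROH2A1 and MACROH2A2). The rule found 81 genes in 99 of the 109018 rows. Of these, 69 genes were clustered, 4 were H1 genes outside the clusters and 8 were variants. The test covered 58 of the 81 genes, those with a mean of at least 1 RPKM (reads scaled to the length of the coding sequence and to the reads of the library) over the libraries.

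Histones H2A, H2B, H3 and H4 form the protein core around which DNA is wound, and histone H1 binds the linker DNA between such cores. The clustered, or replication-dependent, genes are small, lack introns and are transcribed mainly in S phase, and their mRNAs end in a stem-loop bound by the protein SLBP in place of a poly(A) tail. The variant genes lie outside the main histone clusters, most have introns and poly(A) tails, and most are transcribed throughout the cell cycle. H3.3 replaces H3 outside replication, H2A.Z marks promoters and enhancers, H2A.X is phosphorylated at DNA breaks and macroH2A carries a large additional domain.

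The sh-luc group had 3 libraries and the sh-lncRNA-IIRX group had 3, all from total RNA of stable K562 lines made by infection with a lentiviral shRNA vector. The study calls the targeted transcript lncRNA-IUR-5, a long noncoding RNA that its authors found raised by the Abl inhibitor imatinib. Rows are protein accessions, so the level of the targeted RNA was not analysed here. Libraries held 21023739 to 31481109 counted reads, and histone genes took 0.356 to 0.412% of them. Library 1 of each group stood further from the other libraries of its group (chi-square per row 3.69 to 6.54) than libraries 2 and 3 stood from each other (1.74 and 2.24), and the labels number libraries 2 and 3 as parts of one series. The study describes independent groups of cells, and the tests took all 3 libraries of a group as independent. If libraries 2 and 3 were repeats of the same culture, the p-values and SDs given here would be too small. Erythroid markers were present, with HBG2, a fetal globin gene, at 8963 to 12379 RPKM, and markers of B cells, T cells, fibroblasts and monocytes other than LYZ lay at or below 0.541 RPKM. LYZ (78.4 to 94.7 RPKM) and the epithelial genes EPCAM (85.5 to 110.02 RPKM) and KRT8 (133 to 139 RPKM) were detected in all 6 libraries. The sources used here do not say whether poly(A)-tailed RNA was selected, so levels of clustered genes against variant genes depend on a step that is not known. In bulk RNA, fewer cells in S phase and less histone mRNA per cell cannot be told apart.

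The 3′ stem-loop was located on hg38 as an inverted repeat of 6 bases around a 4-base loop within 100 bases after the stop codon, because this element separates the classes of histone mRNA. One gene of each type, and the variant that also carries it, are shown, with the stem and loop in capitals and 5 bases on each side.
H1-2 (chr6:26055739-26055764, minus strand): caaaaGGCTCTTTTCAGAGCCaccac
H2AC13 (chr6:27808642-27808667, plus strand): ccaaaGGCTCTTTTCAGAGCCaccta
H2BC12 (chr6:27146361-27146386, minus strand): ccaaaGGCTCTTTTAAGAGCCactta
H3C10 (chr6:27810511-27810536, plus strand): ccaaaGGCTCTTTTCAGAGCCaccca
H4C3 (chr6:26104312-26104337, plus strand): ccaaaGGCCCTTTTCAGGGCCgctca
H2AX (chr11:119094893-119094918, minus strand): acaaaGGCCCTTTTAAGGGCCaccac
The element was found in 67 of the 69 clustered genes, with the stem GGCTCT in all 52 such genes for H1, H2A, H2B and H3 and the stem GGCCCT in all 15 H4 genes. Of the variants, H2AX had the H4 form of the stem, while H2AZ1, H2AJ, both H3.3 genes, both macroH2A genes and the 4 H1 genes outside the clusters had none. H2AZ2 held an inverted repeat with another stem. In all, 72 of 20020 coding genes (0.360%) carried 1 of these 2 stems in the window searched. The 2 clustered genes without a match, H2AC11 and H2AC15, rose in sh-lncRNA-IIRX cells. So did H2AC13, H2AC14, H2BC4, H2BC7, H2BC21, H4C8 and H4C12, which carry the element. Of all tested rows, 19.2% were called higher. A link between the element and the direction of change was not tested.

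Promoters were read from RefSeq (GRCh38.p14), and the 250 bases before the start are shown for H1-2, the histone gene with the highest level, and for H2AC13 and H2BC21, the gene with the largest rise and the riser whose neighbour fell. Capitals mark CCAAT on either strand, the octamer core ATTTGCA on either strand and TATAA on the strand of the gene.
H1-2 (chr6:26056471-26056720, minus strand): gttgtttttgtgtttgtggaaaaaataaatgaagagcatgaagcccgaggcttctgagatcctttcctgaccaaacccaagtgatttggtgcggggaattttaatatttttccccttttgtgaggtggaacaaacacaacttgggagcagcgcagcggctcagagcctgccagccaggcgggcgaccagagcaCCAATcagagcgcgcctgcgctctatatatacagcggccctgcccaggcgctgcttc
H2AC13 (chr6:27807923-27808172, plus strand): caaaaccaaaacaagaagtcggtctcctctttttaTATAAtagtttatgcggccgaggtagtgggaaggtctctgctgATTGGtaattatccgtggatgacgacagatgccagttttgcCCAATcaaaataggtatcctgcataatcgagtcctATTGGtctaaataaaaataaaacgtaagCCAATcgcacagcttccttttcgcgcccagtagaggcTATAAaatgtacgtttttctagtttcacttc
H2BC21 (chr1:149886683-149886932, minus strand): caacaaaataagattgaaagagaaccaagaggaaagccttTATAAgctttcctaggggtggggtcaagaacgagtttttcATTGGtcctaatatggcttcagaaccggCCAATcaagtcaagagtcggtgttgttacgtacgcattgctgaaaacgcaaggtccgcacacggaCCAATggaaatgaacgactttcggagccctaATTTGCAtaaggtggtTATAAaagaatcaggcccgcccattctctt
In windows of 300 bases that also took in the first 50 bases of the gene, CCAAT stood in every H1, H2A, H2B and H3 promoter that had a RefSeq entry (6, 16, 18 and 11) and in 3 of 13 H4 promoters, against 36.4% of 15843 promoters of coding genes. The octamer core stood in 11 of 16 H2A and 14 of 18 H2B promoters, against 3.43% of all promoters. TATAA stood in 51 of 64 clustered promoters (79.7%) and in 3 of 8 variant promoters, against 12.9% of all promoters. Among the tested H2A and H2B genes, 5 of the 19 with the octamer core rose and 2 fell, and 2 of the 9 without it rose and 2 fell, so risers and fallers came from both groups. The shares of all tested rows were 19.2% higher and 18.1% lower.

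Clustered histone genes moved in both directions. Tested by edgeR (quasi-likelihood, TMM-scaled reads), 9 of the 51 tested clustered genes were higher and 8 were lower in sh-lncRNA-IIRX cells at an adjusted p under 0.05, and 34 did not pass. Among the 6 tested variants, 0 were higher and 2 were lower, and the single tested H1 gene outside the clusters was lower. Across all 38204 tested rows, 37.3% were called, 19.2% as higher and 18.1% as lower. The share of histone genes called (20 of 58) was near the background in this fit. The median log2 fold change was -0.012 over the 58 histone genes and 0.0051 over all tested rows. The 9 that rose were all H2A, H2B or H4 genes, and both most abundant histone mRNAs, H1-2 and H2AZ1, were among the 11 that fell.

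These counts moved with the scaling and with the removal of trends on GC content and coding length. The TMM factors were 0.929 to 0.942 in sh-luc and 1.05 to 1.10 in sh-lncRNA-IIRX libraries, so that on reads scaled to the total alone the median log2 fold change of all rows was 0.20. On that scale 13203 rows were higher and 3281 lower, against 7335 and 6924 with TMM, and the 58 histone genes split into 18 higher and 4 lower. RPKM values follow the total scale. The RPKM of 21 tested histone genes was higher in every sh-lncRNA-IIRX library than in every sh-luc library, and that of 3 was lower, against 40.3% and 11.4% of all tested rows. When the dependence of each library's counts on GC content and coding length was removed, the log2 fold changes of the 58 genes moved up by a median of 0.34 (range 0.013 to 0.41), while the median shift over the 26170 rows in that fit was -0.00049. In that fit 24 of the 58 histone genes were higher and 2 were lower, against 4601 higher and 4597 lower of all 26170 rows. The 2 trends were removed together, so their parts in this shift cannot be told apart. The part of GC content and length in the results was not tested further.

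**Figure D1:**
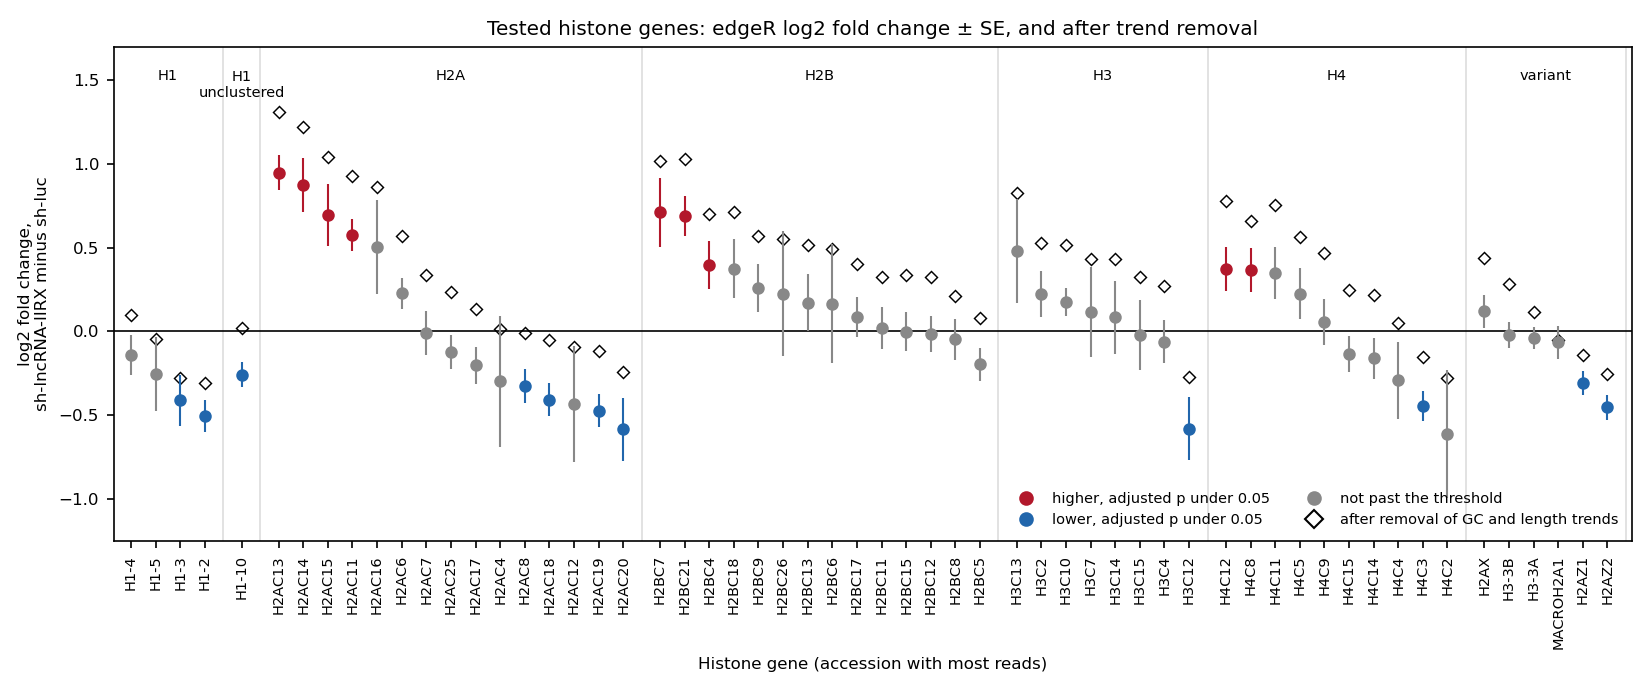
The vertical axis gives the log2 fold change of each tested histone gene, sh-lncRNA-IIRX minus sh-luc, with circles for edgeR's estimate ± SE (3 libraries a group) and open diamonds for the estimate after removal of GC and length trends. Genes are grouped by type, and the diamonds lie above the circles in every group, while H1-2 stays below 0 and H2AC13, H2AC14, H2AC15, H2AC11 and H2BC21 stay above 0.2 in both.

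In the fits that were run, 7 of the 20 called histone genes passed the threshold in the same direction under every alternative scaling, filter, test, left-out library and trend removal. These were H2AC11, H2AC13, H2AC14, H2AC15 and H2BC21, which rose, and H1-2 and H2AZ2, which fell. They were picked out after their values were seen.

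Linker histone mRNA fell, and nearly all of it came from H1-2. This gene supplied 98.8% of the clustered H1 reads in sh-luc and 98.5% in sh-lncRNA-IIRX cells. Its level was 2066, 2423 and 2191 RPKM in the sh-luc libraries 1 to 3 and 1494, 1948 and 1921 RPKM in the sh-lncRNA-IIRX libraries 1 to 3. All sh-lncRNA-IIRX libraries lay below all sh-luc libraries, and library 1 was the lowest. The log2 fold change was -0.51 ± 0.10 (SE; edgeR adjusted p = 0.000474). It was -0.37 without sh-lncRNA-IIRX library 1, and -0.31 after trend removal (edgeR adjusted p = 0.025). Within the label series, the log2 difference was -0.70 between the libraries numbered 1 and -0.42 between the libraries numbered 2 and 3.

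H1-3, another replication-dependent linker histone, stood at 6.76, 8.94 and 10.3 RPKM in sh-luc and at 6.73, 8.21 and 7.40 RPKM in sh-lncRNA-IIRX cells. These groups overlapped, and the fold change of -0.41 ± 0.15 on the log2 scale (edgeR adjusted p = 0.0383) did not pass when sh-luc library 2 or 3 or sh-lncRNA-IIRX library 1 or 3 was left out (adjusted p = 0.067 to 0.219 in edgeR). Over 19 settings, the main fit included, H1-3 passed in 7, with log2 fold changes from -0.57 to -0.18. H1-4 (log2 fold change -0.14) and H1-5 (-0.25) did not pass. No clustered H1 gene was called higher by edgeR, by DESeq2 or at an unadjusted p under 0.05.

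H1-10, a linker histone gene on chromosome 3 outside the clusters, held nearly all reads of the unclustered H1 genes. Its values were 146, 144 and 162 RPKM in sh-luc and 154, 141 and 138 RPKM in sh-lncRNA-IIRX libraries. The groups overlapped on this scale, and the TMM-scaled log2 fold change was -0.26 ± 0.08 (edgeR adjusted p = 0.0116). That call was lost without sh-luc library 3 (log2 fold change -0.21) or sh-lncRNA-IIRX library 3 (-0.24), and the value was 0.018 after trend removal. The germline genes H1-7 and H1-8 had no read.

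H2A genes moved in both directions. Of 15 tested clustered H2A genes, 4 rose, 4 fell and 7 did not pass, with log2 fold changes from -0.59 to 0.95. Those that rose, H2AC13, H2AC14, H2AC15 and H2AC11, all lie on chromosome 6 above 27 Mb, where 5 of 18 tested clustered genes rose and 1 fell. Below 27 Mb on the same chromosome, 3 of 21 rose and 4 fell, and on chromosome 1, 1 of 12 rose and 3 fell. These counts stand beside 19.2% of all tested rows called higher and 18.1% called lower. The groups are small, and the difference between these regions was not tested.

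H2AC13 had the largest rise. Its sh-luc libraries gave 21.9, 25.1 and 26.5 RPKM and its sh-lncRNA-IIRX libraries 50.4, 53.9 and 57.9 RPKM. The lowest sh-lncRNA-IIRX library lay well above the highest sh-luc library. The log2 fold change was 0.95 ± 0.11 (edgeR adjusted p = 2.28e-06), and the within-series differences were 0.96 and 0.94.

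H2AC14 gave 5.43, 4.85 and 7.50 RPKM in sh-luc and 12.1, 12.1 and 12.9 RPKM in sh-lncRNA-IIRX libraries, without overlap. Its log2 fold change was 0.87 ± 0.16 (edgeR adjusted p = 0.000385). H2AC11 gave 21.8, 22.9 and 24.1 RPKM against 41.1, 38.9 and 37.1 RPKM, also without overlap, for a log2 fold change of 0.58 ± 0.10 (edgeR adjusted p = 0.000159). H2AC15 was a gene of low level, at 3.60, 5.01 and 5.20 RPKM in sh-luc and 10.2, 7.64 and 7.51 RPKM in sh-lncRNA-IIRX libraries. Again no library crossed between groups, and the log2 fold change was 0.70 ± 0.19 (edgeR adjusted p = 0.00678). Its within-series differences were 1.25 for library 1 and 0.39 for libraries 2 and 3, so the size rests on library 1.

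The H2A gene with the most reads was H2AC6, with 20.8% of clustered H2A reads in sh-luc and 25.8% in sh-lncRNA-IIRX cells. It stood at 131, 157 and 169 RPKM in sh-luc and at 195, 215 and 201 RPKM in sh-lncRNA-IIRX libraries. Although these values did not overlap, the TMM-scaled log2 fold change of 0.23 ± 0.09 missed the threshold (edgeR adjusted p = 0.059). It passed without sh-luc library 3 (0.30) or sh-lncRNA-IIRX library 1 (0.28), on total reads (0.42, edgeR adjusted p = 0.00091) and after trend removal (0.57, edgeR adjusted p = 0.0002).

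The H2A genes that fell were H2AC20, H2AC19, H2AC18 and H2AC8. H2AC20 had the lowest log2 fold change, -0.59 ± 0.19 (edgeR adjusted p = 0.0208), from 5.83, 9.50 and 6.83 RPKM to 5.38, 5.90 and 5.59 RPKM. The call rested on sh-luc library 2, without which the log2 fold change was -0.36 (edgeR adjusted p = 0.168). H2AC18 and H2AC19 have identical coding sequences, so reads could be assigned to either copy, and their values are uncertain one by one. Their levels ran from 143 to 176 RPKM in sh-luc and from 121 to 150 RPKM in sh-lncRNA-IIRX libraries, and the log2 fold changes were -0.41 and -0.47 (edgeR adjusted p = 0.00294 and 0.00102). The groups overlapped for both copies. H2AC8 had a log2 fold change of -0.32 (edgeR adjusted p = 0.0177), which did not pass without sh-luc library 3 or sh-lncRNA-IIRX library 1 (-0.25 in both fits). None of these 4 passed after trend removal, where their log2 fold changes were -0.24, -0.12, -0.053 and -0.0097.

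**Figure D2:**
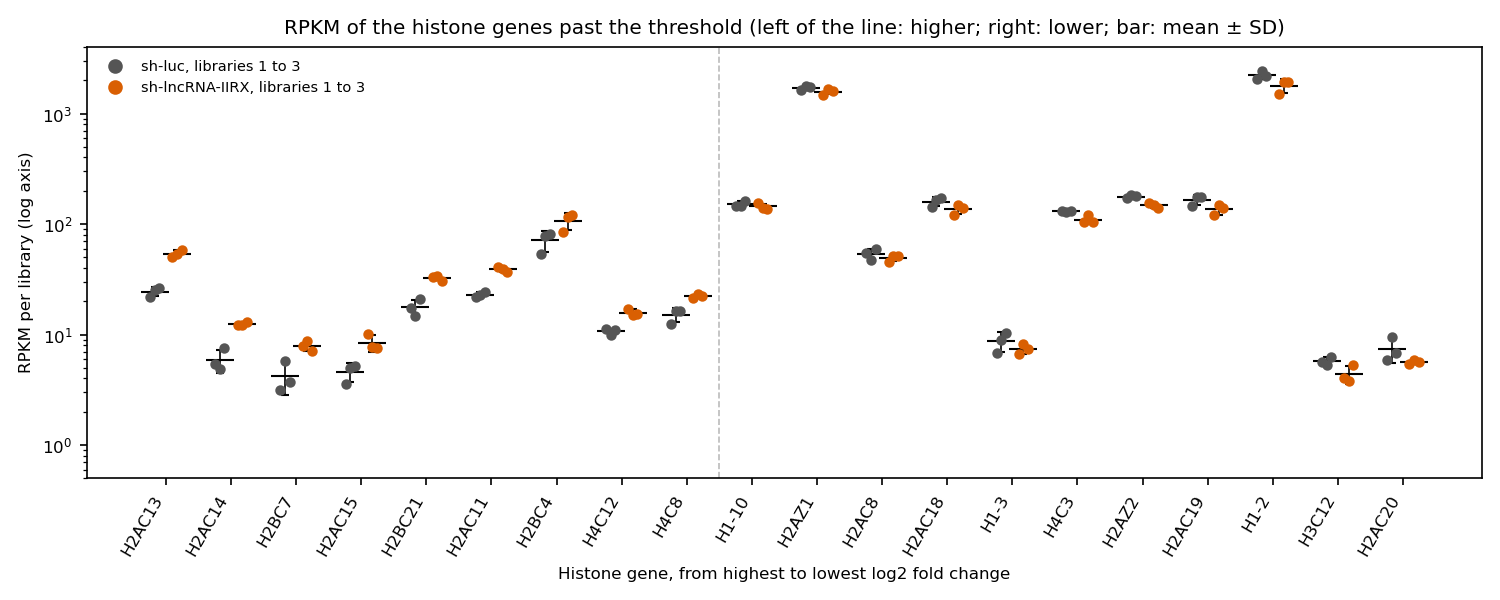
Each point is the RPKM (log axis) of a library for the 20 histone genes past the threshold, ordered by log2 fold change, with sh-luc in grey and sh-lncRNA-IIRX in orange and with the mean ± SD of 3 libraries as a bar. The 9 genes left of the dashed line do not overlap between groups, whereas H1-10, H2AZ1, H2AC8, H2AC18, H2AC19, H1-3, H3C12 and H2AC20 on the right do overlap in RPKM. The calls used TMM-scaled reads, while RPKM follows total reads. On the RPKM scale 40.3% of all tested rows were separate and higher, and 11.4% were separate and lower.

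At the row with the most reads of each gene, 3 of 14 tested clustered H2B genes rose and 0 fell, against 19.2% and 18.1% of all tested rows. By DESeq2 or at an unadjusted p under 0.05, 0 of these H2B genes fell. H2BC5 has 3 rows, and while the one with the most reads did not pass (log2 fold change -0.20), the other two were lower (-0.28 and -0.40, edgeR adjusted p = 0.0321 and 0.00644), and neither passed after trend removal or on total reads. H2BC12, which held 63.6% of clustered H2B reads in sh-luc and 61.1% in sh-lncRNA-IIRX cells, had 496, 639 and 696 RPKM against 599, 732 and 735 RPKM. These groups overlapped, and its log2 fold change was -0.016 ± 0.11 (edgeR adjusted p = 0.922).

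H2BC7 was the riser with the highest log2 fold change, 0.71 ± 0.21 (edgeR adjusted p = 0.0115). It went from 3.15, 5.78 and 3.75 RPKM in sh-luc to 7.84, 8.74 and 7.11 RPKM in sh-lncRNA-IIRX libraries, which did not overlap. The call was lost without sh-luc library 1 (0.53) or sh-luc library 3 (0.63). H2BC21 on chromosome 1 rose by a log2 fold change of 0.69 ± 0.12 (edgeR adjusted p = 0.000185), from 17.4, 14.8 and 20.8 RPKM to 33.1, 34.2 and 30.6 RPKM. Every sh-lncRNA-IIRX library was above every sh-luc library, and the within-series differences were 0.69 and 0.71. H2BC4 rose by 0.40 ± 0.14 (edgeR adjusted p = 0.0369), from 53.2, 78.4 and 82.0 RPKM to 85.0, 116 and 120 RPKM. It did not pass without sh-luc library 1 (0.22), sh-lncRNA-IIRX library 2 (0.32) or sh-lncRNA-IIRX library 3 (0.30).

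Many H2A and H2B genes stand head to head and share the DNA between their starts, as the promoter of H2BC21 shown above does with that of H2AC20. With starts at most 500 bases apart on opposite strands, 12 such pairs were found, 194 to 251 bases apart, and both genes were tested in 10. The ratio of H2A to H2B reads within a library, which no scaling between libraries changes, did not overlap between groups in 6 of these 10 pairs. It was higher in sh-lncRNA-IIRX libraries for 3 pairs and lower for 3. Separate groups were common in these libraries (40.3% of tested rows higher and 11.4% lower in RPKM), and the share among ratios of other gene pairs was not computed, so nothing particular to these pairs is read from the count. This comparison was chosen after the values were seen.

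The pair H2AC20 and H2BC21 differed most. The log2 ratio of H2AC20 to H2BC21 reads was -1.55, -0.60 and -1.58 in sh-luc and -2.59, -2.50 and -2.42 in sh-lncRNA-IIRX libraries, a difference of -1.26. For H2AC7 and H2BC7 the difference was -0.75, from 2.61, 2.23 and 2.85 to 1.67, 1.81 and 1.97. In the other direction, the log2 ratio of H2AC13 to H2BC13 differed by 0.76, from 1.87, 1.65 and 1.35 to 2.10, 2.44 and 2.61. The difference was 0.69 for H2AC15 with H2BC15, 0.56 for H2AC11 with H2BC11 and -0.29 for H2AC17 with H2BC17. Each of these 6 gave p = 0.1 in an exact two-sided permutation test, the smallest p that 3 libraries against 3 allow, and 0.167 after adjustment over the 10 pairs.

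**Figure D3:**
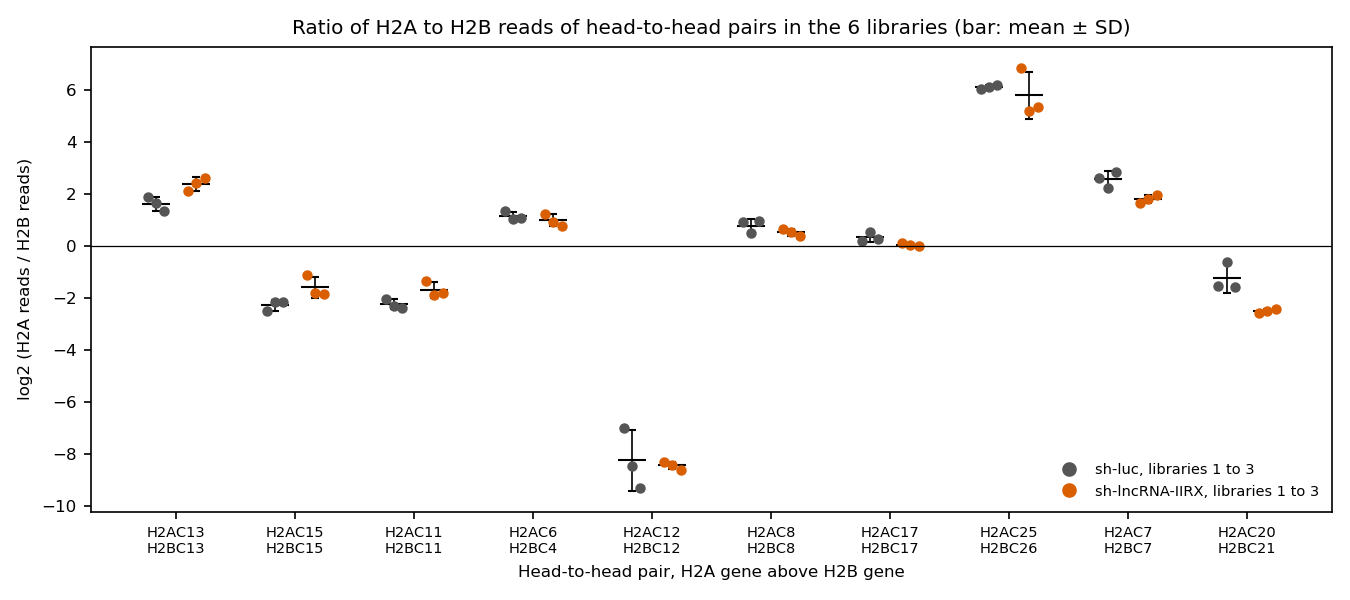
The vertical axis gives the log2 ratio of H2A to H2B reads in each library for the 10 head-to-head pairs with both genes tested, in grey for sh-luc and orange for sh-lncRNA-IIRX, with the mean ± SD of 3 libraries as a bar. For H2AC13, H2AC15 and H2AC11 the sh-lncRNA-IIRX libraries lie above the sh-luc libraries, and for H2AC17, H2AC7 and H2AC20 below them, without overlap.

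A single H3 gene passed. Of 8 tested clustered H3 genes, 0 rose and 1 fell, against 19.2% and 18.1% of all tested rows. DESeq2 called none of these H3 genes (edgeR at an unadjusted p under 0.05 gave 1 in each direction). The gene with the most reads, H3C10, had 86.5, 91.9 and 100.5 RPKM in sh-luc and 124, 121 and 115 RPKM in sh-lncRNA-IIRX libraries. The groups did not overlap on this scale, but after TMM scaling the log2 fold change was 0.18 ± 0.08 (edgeR adjusted p = 0.0985). It passed on total reads (0.37, edgeR adjusted p = 0.0013) and after trend removal (0.52, edgeR adjusted p = 6.7e-05). H3C12 fell by 0.58 on the log2 scale (SE 0.19; edgeR adjusted p = 0.0209), from 5.63, 5.25 and 6.25 RPKM to 4.02, 3.80 and 5.31 RPKM. The groups overlapped through sh-lncRNA-IIRX library 3, and the call was lost without sh-luc library 3 (-0.52) or sh-lncRNA-IIRX library 1 (-0.49) or 2 (-0.51) and after trend removal (-0.27, edgeR adjusted p = 0.28).

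Of 10 tested H4 genes, 2 rose and 1 fell, against 19.2% and 18.1% of all tested rows. H4C3, with 50.7% of H4 reads in sh-luc and 41.9% in sh-lncRNA-IIRX cells, fell from 132, 130 and 130 RPKM to 103, 121 and 104 RPKM. The groups did not overlap, and the log2 fold change was -0.45 ± 0.09 (edgeR adjusted p = 0.000704), or -0.15 after trend removal (edgeR adjusted p = 0.12). H4C12 went from 11.1, 9.92 and 11 RPKM to 17.0, 15.0 and 15.4 RPKM (log2 fold change 0.37 ± 0.13, edgeR adjusted p = 0.0341). Its coding sequence is identical to that of H4C11 (log2 fold change 0.35, edgeR adjusted p = 0.0835), so the 2 copies are uncertain one by one. Although no library crossed between the groups, H4C12 passed in none of the 6 fits with a library left out (log2 fold change 0.33 to 0.41). H4C8 went from 12.5, 16.4 and 16.3 RPKM to 21.3, 23.1 and 22.1 RPKM, without overlap (log2 fold change 0.36 ± 0.13, edgeR adjusted p = 0.036). It did not pass without sh-luc library 1 (0.24), sh-lncRNA-IIRX library 2 (0.32) or sh-lncRNA-IIRX library 3 (0.35).

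Because near-identical copies can exchange reads, the reads were also summed by type. The clustered H1 sum fell by 0.50 on the log2 scale (SE 0.096; edgeR adjusted p = 0.00047), from 2253 ± 182 to 1813 ± 255 RPKM (SD, n = 3). The sums of the core histones did not pass after adjustment. The log2 fold change was -0.083 for H2A (95% interval -0.23 to 0.067), 0.044 for H2B (-0.16 to 0.25) and 0.11 for H3 (-0.045 to 0.27), with edgeR adjusted p of 0.417, 0.764 and 0.290. For H4 it was -0.18 (95% interval -0.33 to -0.029, which does not include 0; edgeR adjusted p = 0.0735). Mean sums in sh-luc and sh-lncRNA-IIRX cells were 730.0 and 788 RPKM for H2A, 952 and 1121 RPKM for H2B, 153 and 188 RPKM for H3, and 258 and 261 RPKM for H4. Thus genes within H2A and H4 moved in opposite directions while their sums did not pass. After trend removal the H2A sum had the opposite sign (0.27).

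**Figure D4:**
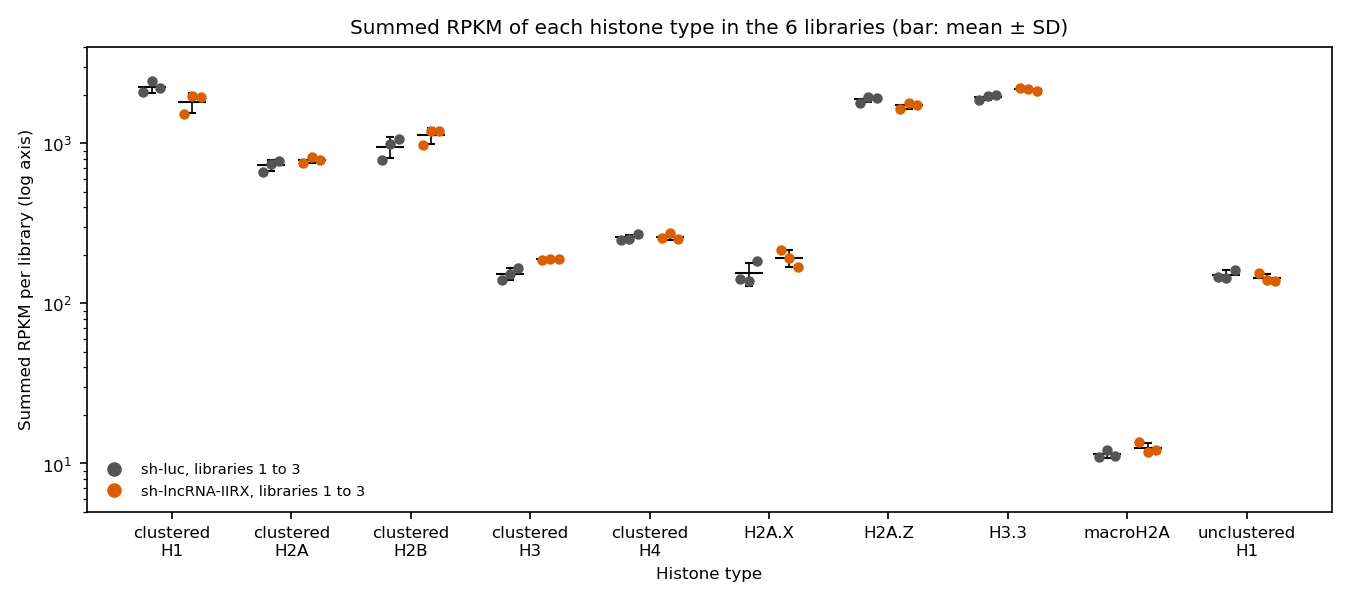
The vertical axis (log scale) gives the summed RPKM of each histone type in each of the 6 libraries, in grey for sh-luc and orange for sh-lncRNA-IIRX, with the mean ± SD of 3 libraries as a bar. Clustered H1 lies lower in all sh-lncRNA-IIRX libraries, and clustered H3 and H3.3 lie higher on this scale, which follows total reads and not TMM.

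Of the variants, those of H2A.Z were lower. H2AZ1, the second most abundant histone mRNA, had 1618, 1763 and 1753 RPKM in sh-luc and 1483, 1650 and 1607 RPKM in sh-lncRNA-IIRX libraries. The groups overlapped in RPKM, and the TMM-scaled log2 fold change was -0.31 ± 0.07 (edgeR adjusted p = 0.00296). On total reads it was -0.12 and after trend removal -0.14, and neither passed (edgeR adjusted p = 0.13 and 0.064). H2AZ2, its paralog, had 170, 182 and 178 RPKM against 154, 150 and 139 RPKM. Its groups did not overlap, and the log2 fold change was -0.45 ± 0.08 (edgeR adjusted p = 0.000155).

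H2AX shares the stem-loop with the H4 genes. It had 142, 138 and 184 RPKM in sh-luc and 215, 191 and 170 RPKM in sh-lncRNA-IIRX libraries. The groups overlapped through sh-luc library 3 and sh-lncRNA-IIRX library 3, and the log2 fold change was 0.12 ± 0.10 (edgeR adjusted p = 0.365). The within-series difference was 0.36 for library 1 and 0.0075 for libraries 2 and 3. After trend removal it was 0.44 (edgeR adjusted p = 0.0002).

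H3-3A and H3-3B encode the same protein, H3.3. H3-3A had 1262, 1303 and 1277 RPKM in sh-luc and 1483, 1400 and 1389 RPKM in sh-lncRNA-IIRX libraries. H3-3B had 603, 669 and 721 RPKM against 738, 778 and 729 RPKM. Both were higher in every sh-lncRNA-IIRX library in RPKM, by about as much as the median row. After TMM scaling the log2 fold changes were -0.04 ± 0.06 and -0.021 ± 0.08, and neither passed (edgeR adjusted p = 0.655 and 0.855), while on total reads they were 0.15 and 0.17. The summed H3.3 genes gave -0.034 (95% interval -0.16 to 0.093), and the sign was positive on total reads (0.16) and after trend removal (0.19).

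MACROH2A1 had 11, 12.1 and 11.1 RPKM in sh-luc and 13.7, 11.8 and 11.8 RPKM in sh-lncRNA-IIRX libraries, with a log2 fold change of -0.065 ± 0.10 (edgeR adjusted p = 0.634). MACROH2A2 had 0 to 2 reads per sh-luc library and 0, 1 and 8 in the sh-lncRNA-IIRX libraries, and H2AJ had no read. A count of 0 allows up to 3 reads per library, which is 0.238 to 0.357 RPKM for a row of 400 bases and covers counting error only. By DESeq2 too, 0 variant genes were higher and 2 were lower, and at an unadjusted p under 0.05 edgeR gave the same counts.

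The share of variant reads within a library compares variant and clustered mRNA without any scaling between libraries. H2A.Z reads made up 72.6, 72.0 and 70.9% of H2A.Z and clustered H2A reads in sh-luc and 68.1, 68.4 and 68.5% in sh-lncRNA-IIRX libraries. The Wilson 95% interval of the first sh-luc library was 72.0 to 73.2% and that of the third sh-lncRNA-IIRX library 68.0 to 69.1%, and these intervals cover counting error only, with each read taken as independent. The means were 71.8 ± 0.867% and 68.4 ± 0.221% (SD, n = 3), and no library crossed between the groups. The log2 ratio differed by -0.24 (exact two-sided permutation test, p = 0.1, adjusted 0.167 over 5 ratios). It ran from -0.27 to -0.21 when any library was left out.

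H3.3 reads made up 93.0, 92.9 and 92.3% of H3.3 and clustered H3 reads in sh-luc and 92.3, 92.0 and 91.8% in sh-lncRNA-IIRX libraries. The groups were separate, by little between sh-luc library 3 (92.32%) and sh-lncRNA-IIRX library 1 (92.29%). The log2 ratio differed by -0.15 (exact permutation test, p = 0.1, adjusted 0.167).

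H2A.X reads made up 19, 16.9 and 20.5% of H2A.X and clustered H2A reads in sh-luc and 23.8, 20.4 and 19.2% in sh-lncRNA-IIRX libraries. These overlapped, with a log2 ratio difference of 0.21 (exact permutation test, p = 0.3, adjusted 0.375). The unclustered H1 genes took 6.52, 5.57 and 6.80% of H1 reads in sh-luc and 9.20, 6.65 and 6.60% in sh-lncRNA-IIRX libraries. Here sh-lncRNA-IIRX library 1 stood apart, and the difference in log2 ratio of 0.26 (exact permutation test, p = 0.4, adjusted 0.4) was 0.084 without it. Counted as 1 class, H2A.Z, H2A.X and H2A.J had 73.6 ± 0.662% of H2A reads in sh-luc and 70.8 ± 0.149% in sh-lncRNA-IIRX libraries (SD, n = 3; exact permutation test, p = 0.1, adjusted 0.167). Coding GC content was 51.8% for H2AZ1 and 59.7 to 67.9% for the 15 tested clustered H2A genes, and its part in these shares was not tested.

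**Figure D5:**
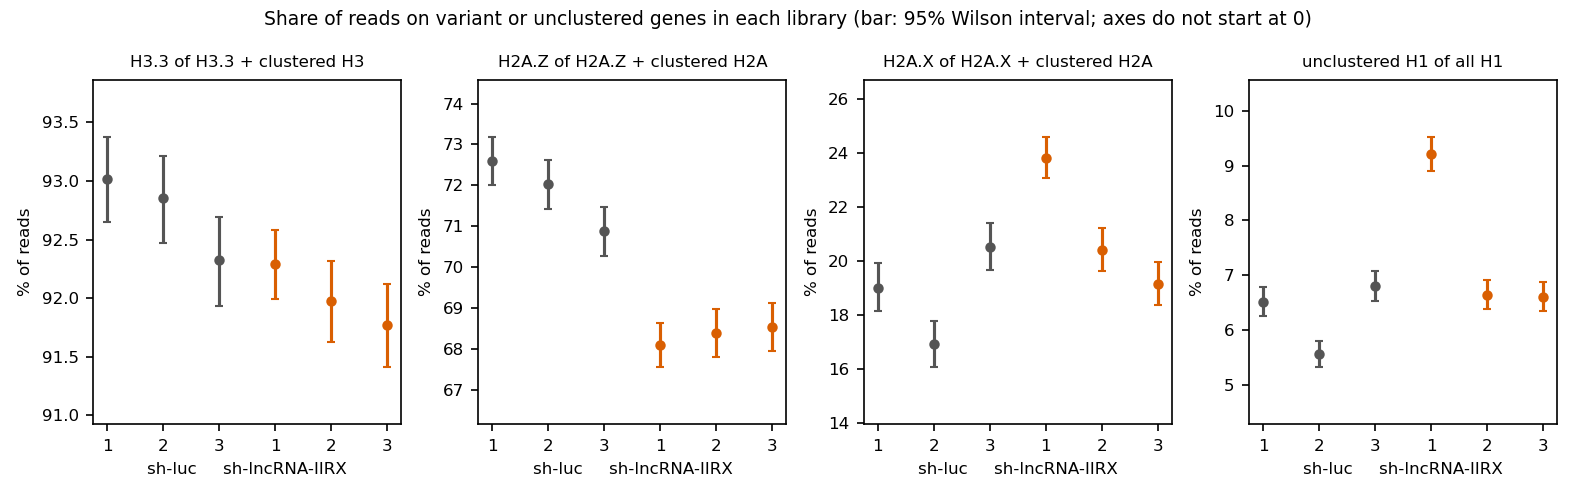
Each panel gives, for libraries 1 to 3 of sh-luc (grey) and sh-lncRNA-IIRX (orange), the percent of reads on the variant or unclustered genes of a type, with the 95% Wilson interval as a bar and axes that do not start at 0. The H2A.Z share is lower in all 3 sh-lncRNA-IIRX libraries, H3.3 is lower by less, and H2A.X and unclustered H1 overlap, with sh-lncRNA-IIRX library 1 highest.

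The other 23 histone genes lay under the mean of 1 RPKM. Of these, 8 had no read (H1-7, H1-8, H2AC1, H2AJ, H3C8, H3C11, H4C6 and H4C16). In the fit of all rows with any read, where 21.4% of rows were called, 0 of the remaining 15 passed in edgeR, at the adjusted threshold or at an unadjusted p under 0.05. H2BC10 came closest, with 4, 3 and 4 reads in sh-luc and 3, 1 and 1 reads in sh-lncRNA-IIRX libraries (unadjusted p = 0.0575, edgeR adjusted p = 0.18).

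Genes listed here as linked to histone supply were taken from lists written for this comparison. The lists share members. SLBP was on the transcription and processing list and on the S phase list. MCM2 was on the chaperone list and on the S phase list, and each is counted on both its lists. Of 24 tested genes on the list for histone gene transcription and pre-mRNA processing, 7 rose and 4 fell, against 19.2% and 18.1% of all tested rows. The median log2 fold change of the 24 genes was 0.096. NPAT, the coactivator of histone genes at the histone locus body, rose by a log2 fold change of 0.56 (edgeR adjusted p = 0.000535), from 1.48, 1.8 and 1.60 RPKM to 2.83, 2.62 and 2.74 RPKM. SLBP, which binds the stem-loops shown above, rose by 0.27 (edgeR adjusted p = 0.0376), from 32.1, 32.2 and 35.6 RPKM to 40.4, 49.8 and 47.2 RPKM. Neither gene overlapped between groups. LSM11 of the U7 small nuclear ribonucleoprotein, which directs the 3′ cut, had 0.59, and the cap-binding gene NCBP1 had 0.48. The lowest were POU2F1 (-0.52), which binds the octamer, SLIRP (-0.43), and LSM10 (-0.36), the partner of LSM11. SLIRP was on the list as written, and no role of it in histone mRNA is shown here. After trend removal LSM10 was at -0.078 and did not pass.

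Of 29 tested histone chaperone genes, 6 rose and 3 fell (median 0.069). The highest were SPTY2D1 (0.57), RBBP4 (0.48), a subunit of the replication-coupled chaperone CAF-1, and EP400 (0.48). The lowest were NASP (-0.40), which stores H3 and H4, SSRP1 (-0.26), a subunit of the FACT chaperone, and CHAF1A (-0.25), the large subunit of CAF-1. SUPT16H, which pairs with SSRP1 in FACT and was chosen after its value was seen, had a log2 fold change of 0.25, opposite in sign to SSRP1. This contrast was not kept on other scales, since SUPT16H was at -0.016 after trend removal and SSRP1 at -0.065 on total reads, and neither passed. The shares that rose and fell stood against 19.2% and 18.1% of all rows. On total reads 16 of the 29 chaperone genes were higher and 0 were lower, on a scale where 13203 of 38204 rows were higher and 3281 lower.

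More S phase genes rose than fell. Of 36 tested S phase genes, 15 rose and 1 fell, with a median log2 fold change of 0.17, against 19.2% and 18.1% of all rows. Each S phase gene was taken at its row with the most reads, while these shares are over all rows. Among rows of at least 5 RPKM, 3840 of 16092 were higher and 3517 lower. After trend removal 11 S phase genes rose and 2 fell, against 4601 and 4597 of 26170 rows. DTL, a replication-licensing regulator, rose by 0.85, GINS1 of the replicative helicase by 0.74 and RFC3 of the clamp loader by 0.59, and GINS3 fell by 0.72 on the log2 scale. The count that rose was 9 without sh-lncRNA-IIRX library 2 or 3, and 10 without sh-luc library 1. By flow cytometry, the study reported that cell cycle progression did not differ significantly between its lncRNA-IUR knockdown and control K562 lines. The part of cell cycle stage in the histone results was not tested. Among markers of K562 cells, TAL1 (0.82) rose and HBE1 (-0.69), HBG1 (-0.55), HBG2 (-0.53) and GATA1 (-0.35) fell, and 0 of 3 tested markers of other cell types passed in edgeR or DESeq2 (1, at an unadjusted p under 0.05, was lower).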

How the data were processed

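The authors trimmed reads, mapped them to hg38 and deposited read counts per RefSeq protein accession, without normalization, for 3 sh-luc and 3 sh-lncRNA-IIRX libraries of K562 cells, described as independent groups of cells. The submitters' processing notes name CASAVA 1.8, Trimmomatic 0.32, Bowtie2 2.1.0 and SAMtools 0.1.19, and how reads that match several copies were counted is not given in the sources used here. RPKM values deposited beside the counts by the authors were recomputed to within 0.1% in every row from the reads, the length of the row and the sum of the library, so they carry no scaling beyond depth. A further deposited table holds the authors' pooled values, fold changes and p-values for their own comparison and was not used.

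The members and gene lists were chosen with earlier results of these data known. Through accessions, 64.7% of the rows (69.2% of those tested) were given a symbol from the RefSeq gene list of GRCh38.p14, and 1 coding symbol of the rule, H2BC12L, had no row. A gene with several rows is given by the row with the most reads. The two-sided quasi-likelihood test of edgeR 4.0.16 in R 4.3.3, on TMM-scaled reads, covered the 38204 rows with a mean RPKM of at least 1, with Benjamini-Hochberg adjustment over all of them and a threshold of 0.05. The biological coefficient of variation was 8.05%. For type sums, member rows were replaced by 1 row per type. Shares within a library were compared by exact permutation tests. Stem-loops were searched on hg38 with GENCODE coding ends. The scripts were tested on simulated counts.

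The other settings tried were the replicate number as a block, the label series as a term, each library left out, DESeq2 1.42.0, its size factors, total reads, other minimum levels, limma 3.58.1 on log2(RPKM + 0.1) and on pseudocounts of 1 and 0.01, and removal of trends on coding GC content and length (mgcv 1.9.3), which was possible for 68.5% of tested rows. Genes named are all variants, H1-10, for each clustered type the gene with the most reads and the highest and lowest log2 fold change among those called, and from each list the called genes with the 3 highest and 3 lowest log2 fold changes, with SLBP and NPAT. Other genes named were chosen after their values were seen. Some genes of the rule and lists are not reported here by name.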

Additional observations from a re-analysis of the deposited data

How the results depend on the processing

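The number of clustered genes that rose was 9, and was 16 on total reads, 14 among rows of at least 5 RPKM, 22 after trend removal, 28 with trend removal and the replicate block, and 18 with limma at each pseudocount. The number that fell was 8, and was 3, 4, 1, 2 and 4 in the same fits. All tested rows gave 13203 higher and 3281 lower of 38204 on total reads. Among rows of at least 5 RPKM they gave 3840 higher and 3517 lower of 16092. After trend removal they gave 4601 and 4597 of 26170, and 5707 and 5698 with the block. With limma at a pseudocount of 0.1 they gave 12274 and 3215 of 38204. For variants, 2 rose on total reads, after trend removal and with limma and 3 with trend removal and the block, against 0, and 1 fell on total reads, after trend removal and with limma, against 2. Leaving out a library gave 5 to 11 clustered risers (5 without sh-luc library 1) and 5 to 9 clustered fallers (5 without sh-luc library 3). All rows in these fits gave 5704 to 6864 higher and 5506 to 6718 lower of 38204.

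Of the transcription and processing genes, 12 rose on total reads against 7, and 1 fell on total reads, 2 among rows of at least 5 RPKM and 0 with limma, against 4 (1 to 4 with a library left out, 1 without sh-luc library 3). Of the chaperone genes, 16 rose on total reads, 10 among rows of at least 5 RPKM and 15 with limma, against 6, and 0, 1 and 0 fell in these fits, 5 with any read and 8 with trend removal and the block, against 3. Of the S phase genes, 9 to 21 rose with a library left out, and 3 fell with the block, the series term, any read or trend removal with the block and 2 after trend removal, against 1. Over all rows, 8574 were higher and 8263 lower with the block, and 9090 and 8828 with the series term. With any read, 8978 and 8965 of 83980 were higher and lower. For the other fits the counts of all rows are those given above.

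The H2A.X sum passed with 0.31 on total reads, 0.44 after trend removal (0.44 with the block) and 0.32 with limma. The H2A.Z sum did not pass with -0.13 on total reads, -0.15 after trend removal and -0.13 with limma. The H3.3 sum changed sign, to 0.16 on total reads and with limma and 0.19 after trend removal and with the block. The H2A sum changed sign after trend removal (0.27, and 0.27 with the block). The H2B sum then passed with 0.37 (0.38 with the block). The H3 sum passed with 0.30 on total reads, 0.23 among rows of at least 5 RPKM, 0.45 after trend removal, 0.46 with the block and 0.31 with limma. The H4 sum passed with the replicate block (-0.18), the series term (-0.18) and any read (-0.23), and was 0.17 with trend removal and the block. The unclustered H1 sum did not pass on total reads or with limma (-0.064) or at 5 RPKM (-0.14), was 0.014 and 0.015 in the 2 trend fits, and ran from -0.29 to -0.21 with a library left out. Among single genes that were past the threshold in at least 1 of the 2 fits compared, signs changed for H2BC12 (0.32 and 0.33), H2BC15 (0.34), H3-3B (0.28) and H1-10 (0.018 and 0.019) in both trend fits, for H3C4 (0.28), H2AC7 (0.35), H2AC25 (0.23), H4C15 (0.25) and H3-3A (0.12) with trend removal and the block, and for H3-3A on total reads and with limma (0.15). Further genes changed sign without passing in either fit, among them H3C4 (0.27) and H2AC7 (0.34) after trend removal and H2BC12 (0.17) and H3-3B (0.17) on total reads. The cause of these shifts was not tested.

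The replicate numbers were not used as a pairing. Deviations of same-numbered libraries correlated by 0.311, 0.0878 and -0.0126, and those of sh-luc library 2 and sh-lncRNA-IIRX library 3 by 0.227. With the replicate block, 2 further histone genes, H2AC6 (edgeR adjusted p = 0.0081) and H3C10 (edgeR adjusted p = 0.049), passed and no call of a histone gene was lost. The clustered H1 sum, H1-2, H2AC11, H2AC13, H2AC14, H2AC15, H2BC21 and H2AZ2 stayed on their side of the threshold in each alternative run, and the log2 ratios of variant to clustered reads kept their signs.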
